A study of Mus musculus with 8 samples.

Results

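The replication-dependent histone genes of the mouse were followed through an RNA immunoprecipitation experiment on hippocampus. A gene was a member when it codes for protein and its mouse symbol, current or older, names a gene of the Hist1 to Hist4 clusters or H1f1 to H1f5. This gave 67 of the 55401 genes in the count table: 62 by their current symbol and 5 only by an older one, namely H4f16 (Hist4h4), H2bu2 (Hist3h2ba), H2aw (Hist3h2a), H4bc24 (Hist1h2br) and H1f6 (Hist1h1t). They comprised 6 H1, 18 H2A, 18 H2B, 12 H3 and 13 H4 genes. Of the 67, 54 lay in the Hist1 cluster on chromosome 13, 10 in Hist2 on chromosome 3, 2 in Hist3 on chromosome 11 and 1 in Hist4 on chromosome 6. Another 4 genes with matching symbols were not protein-coding and were left out. In 61 of the 67 genes the deposited gene model had a single exon.

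The experiment asked which RNAs are bound by CaMKIIβ, the β subunit of a calcium/calmodulin-dependent kinase that is abundant in neurons. The CaMKIIβ RIP group held 3 libraries of RNA recovered with an antibody to CaMKIIβ. The IgG RIP group held 3 libraries of RNA recovered with a control IgG, and the Input group held 2 libraries of RNA that had not been precipitated. Every library came from hippocampus of C57BL/6 mice, and age, sex, the number of animals and any pooling are not given in the sources used here. P-values therefore measure the spread between libraries, which may be technical.

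Core histones H2A, H2B, H3 and H4 form the nucleosome, and H1 is the linker histone that binds where DNA enters and leaves it. The replication-dependent genes are expressed mainly in S phase. Their mRNAs end in a conserved stem-loop bound by SLBP in place of a poly(A) tail, after cleavage directed by the U7 snRNP, and are rapidly degraded when DNA synthesis stops. In differentiated cells some of these genes also give polyadenylated transcripts. The libraries were made from total RNA, and whether poly(A) RNA was selected is not given in the sources used here.

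The families differ in the motifs before their start sites. The stretches below belong to the 3 H1 genes and to some of the 8 H4 genes that differed between IgG RIP and Input. RefSeq windows on GRCm38.p6, from 250 bases before to 50 bases after the gene start, were matched for 62 of the 67 genes. The most counted H4 gene, H4c14, had no matched window. The 5 motifs searched on both strands were AAACACA (the H1 box), CCAAT, ATTTGCAT (the octamer), GGTCCG (part of the H4 subtype element) and TATAAA. Of 220 matches, 1 pair of different motifs overlapped. AAACACA was in 5 of 6 H1 windows (absent from H1f1), 2 of 18 H2A and 2 of 16 H2B windows and in 0 of 10 H3 and 0 of 12 H4 windows, against 7.14% of all 27025 promoters of the same length. GGTCCG was in 11 of 12 H4 windows, 1 of 16 H2B and 1 of 10 H3 windows and 0 of 6 H1 and 0 of 18 H2A windows, against 8.39% of all promoters. H4c1 was the H4 gene without it. CCAAT was in all 6 H1, 18 H2A, 16 H2B and 10 H3 windows but in 3 of 12 H4 windows, against 37.9% of all promoters. ATTTGCAT was in 7 of 18 H2A and 6 of 16 H2B windows and in none of the H1, H3 or H4 windows, against 1.75% of all promoters. TATAAA was in 35 of 62 windows, against 14.2%. These letters are descriptions of the windows and not evidence of binding.

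The 150 bases before the start are given 5′ to 3′ on the gene's own strand, with every match to the 5 motifs on either strand in capitals. The H1 stretches are those of H1f2 (chr13:23738657-23738806, plus strand), H1f4 (chr13:23622559-23622708, minus strand) and H1f3 (chr13:23554882-23555031, plus strand). In them AAACACA starts 112, 115 and 122 bases before the RefSeq gene. The stretch of H1f3 lies inside the exon model that was counted for it, which spans 23553262 to 23560686.
H1f2: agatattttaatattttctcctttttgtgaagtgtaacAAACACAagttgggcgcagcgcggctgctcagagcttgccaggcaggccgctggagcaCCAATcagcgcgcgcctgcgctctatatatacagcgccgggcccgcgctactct
H1f4: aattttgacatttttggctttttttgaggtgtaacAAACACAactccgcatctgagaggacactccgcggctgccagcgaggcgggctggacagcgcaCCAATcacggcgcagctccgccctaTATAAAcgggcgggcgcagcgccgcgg
H1f3: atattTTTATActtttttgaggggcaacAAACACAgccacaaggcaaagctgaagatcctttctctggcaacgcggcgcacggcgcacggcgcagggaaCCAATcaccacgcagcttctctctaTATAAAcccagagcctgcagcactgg
The H4 stretches are those of H4c3 (chr13:23698459-23698608), H4c12 (chr13:21750554-21750703), H4c9 (chr13:22041363-22041512), H4c18 (chr13:21832198-21832347) and H4c1 (chr13:23761250-23761399), all on the minus strand. GGTCCG starts 46 bases before H4c3, H4c9 and H4c18 and 32 bases before H4c12, and H4c1 has no match to it. The stretches of H4f16, H4c17 and H4c8, which also differed, are not printed. GGTCCG starts 32 bases before H4f16 and 47 before H4c17. The 150 bases before H4c8 hold no full match to any of the 5 motifs, although its window has GGTCCG.
H4c3: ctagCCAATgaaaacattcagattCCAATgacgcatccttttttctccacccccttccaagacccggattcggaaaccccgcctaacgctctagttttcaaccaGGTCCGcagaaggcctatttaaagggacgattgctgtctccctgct
H4c12: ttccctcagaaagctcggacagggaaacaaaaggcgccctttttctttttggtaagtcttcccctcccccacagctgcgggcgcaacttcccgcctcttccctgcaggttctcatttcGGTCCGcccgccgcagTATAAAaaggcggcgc
H4c9: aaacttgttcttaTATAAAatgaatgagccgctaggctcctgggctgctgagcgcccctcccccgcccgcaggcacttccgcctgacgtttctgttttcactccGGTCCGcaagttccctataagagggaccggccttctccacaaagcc
H4c18: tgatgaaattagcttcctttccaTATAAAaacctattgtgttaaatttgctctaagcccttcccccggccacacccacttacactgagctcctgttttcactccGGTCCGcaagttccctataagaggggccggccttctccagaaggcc
H4c1: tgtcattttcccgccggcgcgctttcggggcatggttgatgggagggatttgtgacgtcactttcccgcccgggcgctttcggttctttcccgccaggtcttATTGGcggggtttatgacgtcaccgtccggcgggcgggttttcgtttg
The stretch of H4c18 shares an unbroken run of 149 bases with that of H4c17 (chr13:21811596-21811745, plus strand). The transcripts of such copies can be hard to tell apart, and the treatment of reads that fit several positions is not given in the sources used here, so the split of counts between H4c17 and H4c18 is uncertain.

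The libraries held between 17273957 and 28138289 counts, and levels of single genes and of marker lists are given as CPM, counts scaled by library size and the TMM factor of edgeR. The library of CaMKIIβ RIP replicate 2 stood apart, with 19247 genes detected against 24865 to 31152 in the other 7 libraries, and with 5 of the 46 tested histone genes at 0 counts against 0 to 2. Mitochondrially encoded RNA took 0.360% to 0.656% of counts in CaMKIIβ RIP, 0.756% to 0.858% in IgG RIP and 1.92% to 2.08% in Input. The 6 markers of hippocampal and telencephalic excitatory neurons, among them Prox1 and Neurod6, summed to 285 to 338 CPM. The 6 markers of cerebellar granule cells, among them Gabra6 and Cbln3, summed to 2362 to 2637 CPM, so RNA of genes known from cerebellum was abundant in libraries labelled hippocampus. Of the 24 S phase and proliferation genes, which include Mki67 and Top2a, none was at 0 in all libraries. They summed to 136 to 158 CPM in CaMKIIβ RIP, 146.6 to 151.2 CPM in IgG RIP and 141 to 147 CPM in Input. In bulk tissue, fewer cells of a type and less RNA per cell cannot be told apart.

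Histone genes took a small share of each library, and the order of the groups depended on the scaling. As CPM of the library total, the 67 genes summed to 497 ± 103 in CaMKIIβ RIP, with 448, 615 and 427 in replicates 1, 2 and 3. The sum was 419 ± 21.3 in IgG RIP, with 436, 395 and 425, and 485 ± 30.3 in Input, with 463 and 506 (SD, n = 3, 3 and 2). On this scale CaMKIIβ RIP replicate 2 gave the highest sum of all libraries, and the other 2 CaMKIIβ RIP libraries lay below both Input libraries. Scaled by TMM over the 8 libraries, the sums were 473, 619 and 447 CPM in CaMKIIβ RIP, 449.2, 406 and 448.9 CPM in IgG RIP, and 415 and 454 CPM in Input. The fits set TMM factors anew for the libraries compared. CaMKIIβ RIP replicate 2 was again the highest, but replicate 1 then lay above both Input libraries and replicate 3 between them. The TMM means were 513, 435 and 434 CPM in CaMKIIβ RIP, IgG RIP and Input.

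H4 took the largest part of the histone counts in every library. Its share was 50.7%, 57.4% and 57.0% in CaMKIIβ RIP, 49.7%, 46.6% and 45.5% in IgG RIP, and 58.7% and 57.9% in Input. All IgG RIP libraries lay below all other libraries in this share. H4c14 and H4c4 alone gave 27.0% to 39.2% of the histone counts of a library. Their counted models were 4.24 and 2.83 times as long as the RefSeq genes. The part of the added bases in the H4 share was not tested. The H1 share was 24.1%, 17.2% and 20.6% in CaMKIIβ RIP, 23.9%, 24.6% and 28.2% in IgG RIP, and 16.1% and 16.5% in Input. All 6 precipitated libraries lay above both Input libraries in the H1 share. The H2A, H2B and H3 shares were 3.44% to 6.65%, 9.55% to 13.1% and 6.79% to 9.23% across the 8 libraries. No p is given for these shares, which are sums over chosen genes.

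**Figure D1:**
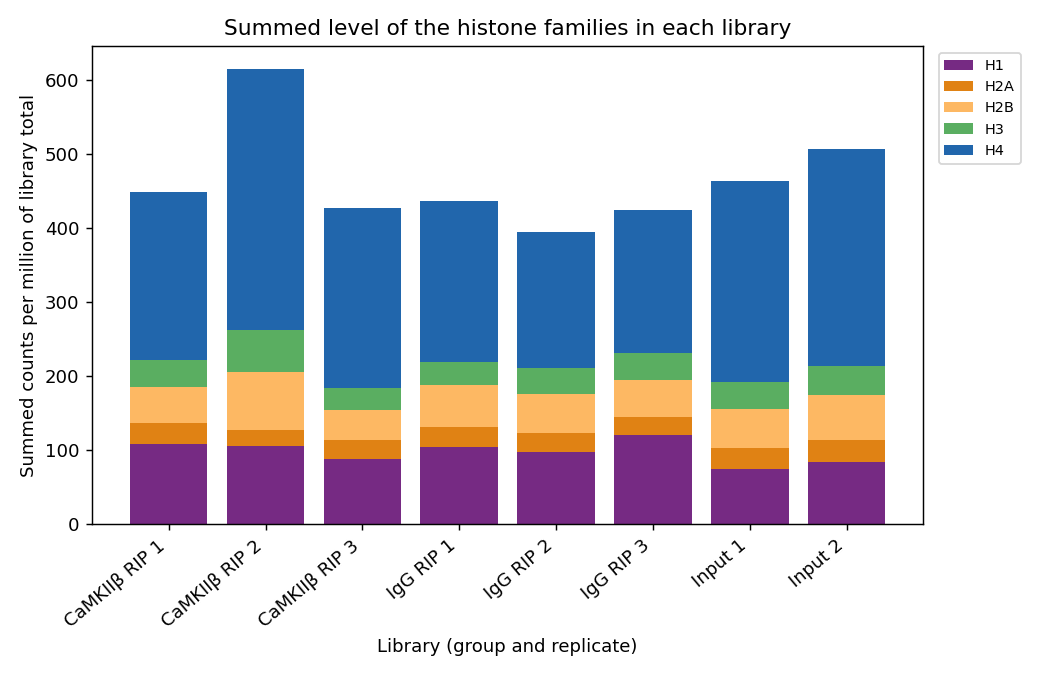
Summed CPM of the library total (bars, from 0) for the 5 histone families in each of the 8 libraries, with 3 CaMKIIβ RIP, 3 IgG RIP and 2 Input libraries. CaMKIIβ RIP replicate 2 has the tallest bar at 615, and the H1 segment is 87.9 to 120 in the precipitated libraries against 74.6 and 83.8 in Input.

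A few genes held most of the signal. The 12 genes with the highest mean CPM took 72.5% to 78.8% of the histone counts in each library. They were 5 H4 genes, 3 H1 genes, H2bu2, H2bc4, H3c6 and H2ac20. Set per kilobase of exon model, the mean levels over the 8 libraries were highest for H4c8 at 76.6 CPM per kb, H4c14 at 58.4, H4c4 at 45.6, H4c12 at 41.3, H2bu2 at 28.6 and H1f2 at 24.8. The model length matters for this order. Model length is given in exon bases, and the length of a RefSeq gene is its span with any introns. In 15 of the 67 genes the deposited model was at least 1.5 times as long as the RefSeq gene, among them H4c14 (1630 against 384 bases), H4c4 (1138 against 402) and H1f3 (7425 against 776). With its long model H1f3 had 2.65 CPM per kb.

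The most counted histone gene was H4c14 (ENSMUSG00000091405, chromosome 3, 96261682 to 96263311, minus strand, Hist2 cluster). It had 103, 93.4 and 125 CPM in CaMKIIβ RIP, 98.1, 85.7 and 94.1 CPM in IgG RIP, and 89.6 and 73.2 CPM in Input. H4c4 (chromosome 13, 23581598 to 23582735) had 50.8, 85.7 and 50.2 CPM in CaMKIIβ RIP, 47.5, 41.1 and 44.0 CPM in IgG RIP, and 46.0 and 49.5 CPM in Input. Both genes encode H4, and for H4c4 the CaMKIIβ RIP libraries lay above all others, replicate 2 by far the most. H2bu2, an H2B gene of the Hist3 cluster, had 14.1, 37.4 and 12.6 CPM in CaMKIIβ RIP, 18.2, 15.3 and 16.5 CPM in IgG RIP, and 12.9 and 13.6 CPM in Input. Here replicate 2 of CaMKIIβ RIP was again the highest library, and the other CaMKIIβ RIP libraries lay below all IgG RIP libraries. H3c6, the most counted H3 gene, varied little, with 11.1, 11.5 and 10.3 CPM in CaMKIIβ RIP, 13.1, 13.3 and 12.7 CPM in IgG RIP, and 10.02 and 10.9 CPM in Input. H2bc4, the second H2B gene by count, had 12.4, 17.95 and 8.71 CPM in CaMKIIβ RIP, 13.2, 9.42 and 13.1 CPM in IgG RIP, and 12.6 and 13.1 CPM in Input, with all groups overlapping.

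**Figure D2:**
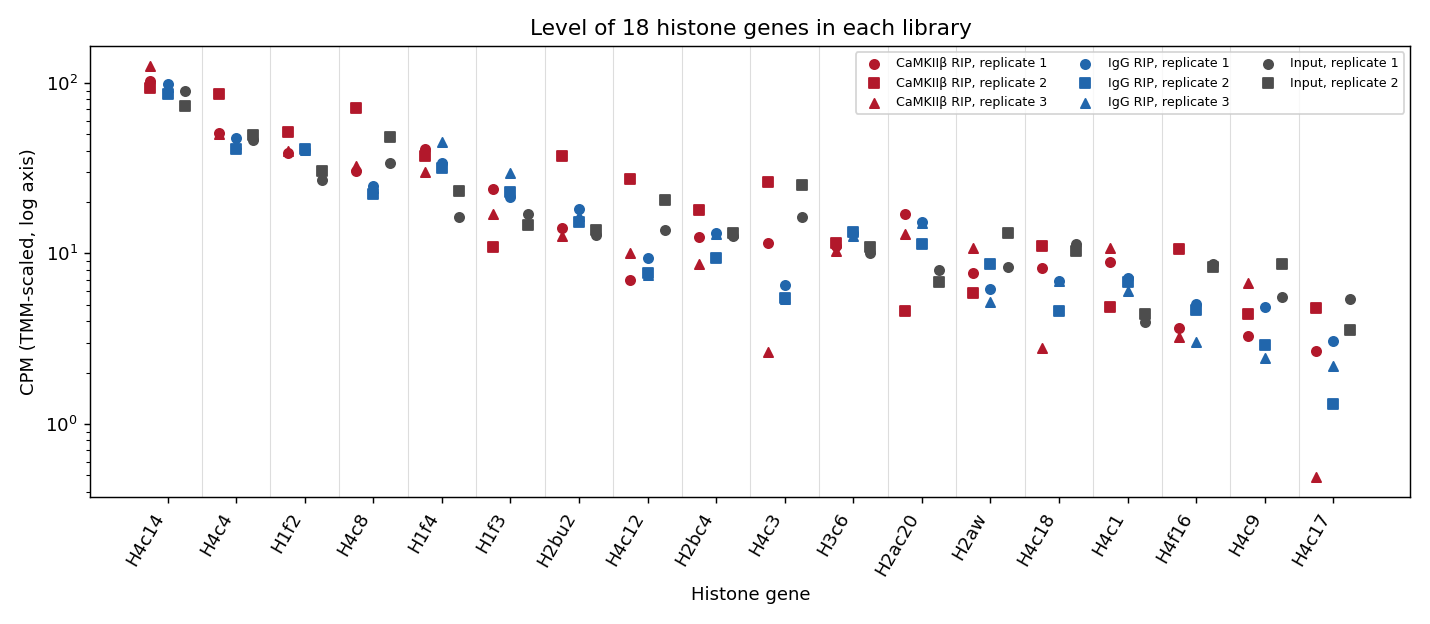
TMM-scaled CPM (log axis) of 18 histone genes in each library, with CaMKIIβ RIP at the left of each column, IgG RIP in the middle and Input at the right, and the marker shape giving the replicate. H4c14 is at the top at 73.2 to 125 CPM, and CaMKIIβ RIP replicate 2 (square) is far above its group for H4c8 at 71.6 CPM and H2bu2 at 37.4 CPM.

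Between CaMKIIβ RIP and IgG RIP, the comparison that addresses binding by CaMKIIβ, none of the 44 histone genes tested passed the threshold of an adjusted p under 0.05 (edgeR quasi-likelihood test, Benjamini-Hochberg over all genes tested). The background was the same: 0.0% of the 20566 genes tested were called. At an unadjusted p under 0.05 there were 2 histone genes, H4c8 and H4c4, against 3.51% of all genes, and DESeq2 and limma-voom called 0 histone genes. The adjusted p of the 44 ran between 0.982 and 0.996. The median log2 fold change was 0.21, against −0.02 over all genes tested. Without CaMKIIβ RIP replicate 2 it was −0.05.

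The H4 genes had the most one-sided values in this comparison, although none passed the test. The log2 fold change was above 0 in 12 of 12 tested H4 genes, with a median of 0.48 and a range of 0.22 to 1.21, in 9 of 12 without CaMKIIβ RIP replicate 2 and in 11 of 12 with limma-voom or the replicate block. It was above 0 in 1 of 5 H1, 2 of 6 H2A, 5 of 11 H2B and 7 of 10 H3 genes, with medians of −0.15, −0.21, −0.14 and 0.38. Without CaMKIIβ RIP replicate 2, 5 of 10 H3 genes were above 0, with a median of 0.04. With a trend on exon length removed, 4 of 6 H2A genes were above 0, with a median of 0.52. H4c8 (chromosome 13, 23531050 to 23531519, plus strand) had 30.6, 71.6 and 32.7 CPM in CaMKIIβ RIP and 24.9, 22.2 and 24.3 CPM in IgG RIP. The groups did not overlap, replicate 2 was the highest, and the log2 fold change was 0.93 ± 0.30 (SE, edgeR adjusted p = 0.982). H4c3 had 11.5, 26.1 and 2.64 CPM in CaMKIIβ RIP and 6.56, 5.46 and 5.41 CPM in IgG RIP, which overlap, since CaMKIIβ RIP replicate 3 was the lowest of the 6. For H4c12 the values were 7.01, 27.2 and 10.1 CPM in CaMKIIβ RIP and 9.41, 7.65 and 7.44 CPM in IgG RIP, which overlap as well.

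In 6 of the 44 genes the libraries of CaMKIIβ RIP and IgG RIP did not overlap, against 2465 of the 20566 genes tested (12%). These were H4c8, H4c4, H4c11, H3c4 and H2ac6, higher in CaMKIIβ RIP, and H3c6, lower in CaMKIIβ RIP. For 7 of the 44 the 95% interval of the fold change lay within 2-fold in either direction. Among them H1f2 had a log2 fold change of 0.11, with an interval of −0.22 to 0.45, and H1f4 one of −0.03, with an interval of −0.44 to 0.38. For the other 37 genes the interval reached past 2-fold in at least 1 direction, as for H1f3 with −1.11 to 0.10 and H4c8 with 0.26 to 1.59. The SE of the log2 fold change reached 1.71, in the H2B gene H2bc14.

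Between CaMKIIβ RIP and Input, which have the CaMKIIβ RIP libraries in common with the comparison above, 0 of the 45 histone genes tested passed the threshold, against 8.45% of the 22095 genes tested, of which 5.06% were higher and 3.4% lower. Among all 3224 tested genes with at most 1000 exon bases, 0.186% passed. At an unadjusted p under 0.05 there were 2 histone genes, the linker genes H1f4 and H1f2, against 22.6% of all genes. DESeq2 called the same 2 genes, with adjusted p of 0.0103 and 0.0416. H1f4 (chromosome 13, 23620629 to 23622558, minus strand) had 40.8, 37.1 and 29.9 CPM in CaMKIIβ RIP and 16.4 and 23.2 CPM in Input, with no overlap. Its log2 fold change was 0.81 ± 0.23 (SE, edgeR adjusted p = 0.0767). H1f2 (chromosome 13, 23738808 to 23740367, plus strand) had 39.0, 51.6 and 40.02 CPM in CaMKIIβ RIP and 27.1 and 30.4 CPM in Input, again without overlap. Its log2 fold change was 0.55 ± 0.19 (edgeR adjusted p = 0.133).

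The family medians against Input lay on both sides of 0, although no histone gene passed, and some changed sign with the setting. The median log2 fold change was 0.44 in H1, −0.52 in H2A, 0.10 in H2B, 0.36 in H3 and −0.09 in H4. The log2 fold change was above 0 in 4 of 5 H1, 1 of 8 H2A, 5 of 10 H2B, 8 of 10 H3 and 6 of 12 H4 genes, and the median over the 45 was 0.09, against −0.12 over all genes. The 2 groups did not overlap in 7 of the 45 genes, against 47.1% of all genes. Without CaMKIIβ RIP replicate 2, 4 genes were called: H1f4, H2ac20 and H4c1 were higher in CaMKIIβ RIP, with log2 fold changes of 0.85, 1.04 and 1.23, and H4f16 was lower, with −1.28 (edgeR adjusted p = 0.0477, 0.0245, 0.0186 and 0.0187). The share of all genes called was then 18.7%, and it was 0.0% without CaMKIIβ RIP replicate 1.

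**Figure D3:**
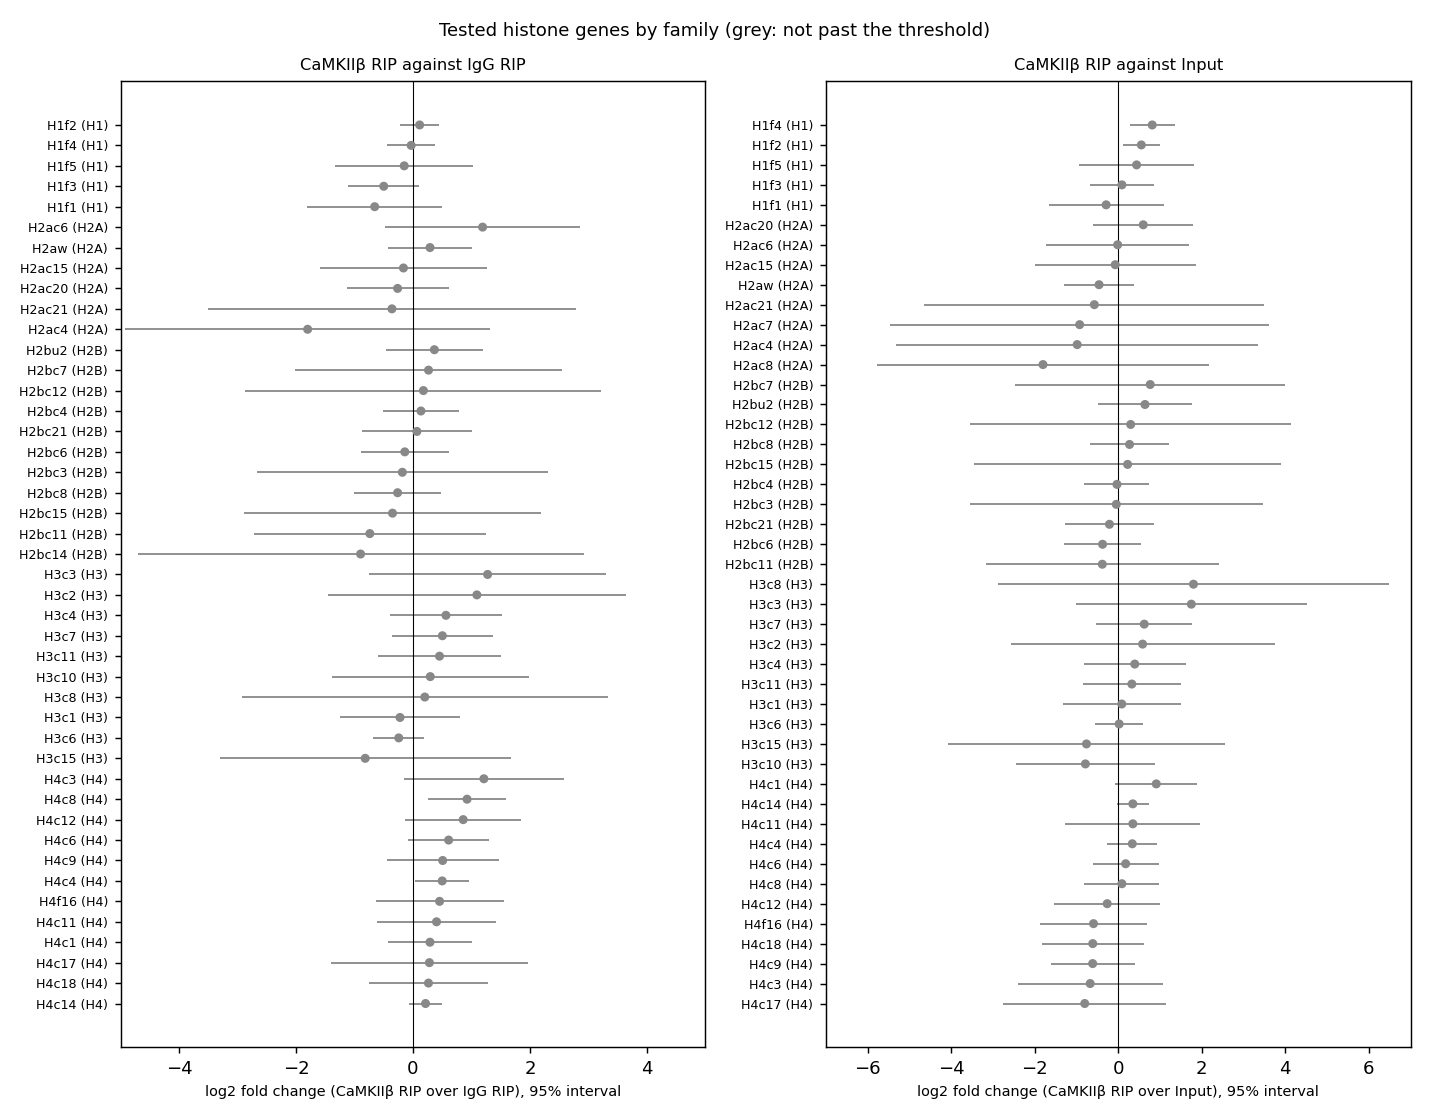
Log2 fold change (points) and 95% interval (lines) of every tested histone gene, ordered by family, for CaMKIIβ RIP over IgG RIP at the left (44 genes) and CaMKIIβ RIP over Input at the right (45 genes). All points are grey because 0 genes passed the threshold in either panel, and all 12 H4 points of the left panel lie above 0.

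Each of the 3 comparisons shares libraries with the other two, and their values are set side by side without a test of likeness. Between IgG RIP and Input, 13 of the 45 histone genes tested passed the threshold, 5 higher and 8 lower in IgG RIP. That is 28.9% of those tested, against 38.7% of the 22342 genes tested, of which 20.1% were higher and 18.7% lower. Among all 3327 tested genes with at most 1000 exon bases 12.9% passed, 2.89% higher and 9.98% lower. By family the calls were as follows. Of the H1 genes 3 of 5 rose and 0 fell, and of the H4 genes 1 of 12 rose and 7 fell. Of the H2A genes 1 of 8 rose and 1 fell, and 0 of 11 H2B and 0 of 9 H3 genes passed. At an unadjusted p under 0.05 there were 2 H2B and 2 H3 genes, against 45.5% of all genes. The median log2 fold change was 0.66 in H1, −0.44 in H2A, 0.34 in H2B, 0.12 in H3 and −0.79 in H4. With library size alone as the scaling, which moves the median of all genes by −0.23, 4 histone genes were higher and 12 lower, and H1 still had 3 higher and H4 9 lower. With a trend on exon length removed, 9 histone genes were higher and 6 lower. DESeq2 and limma-voom called the same numbers of H1 and H4 genes in each direction and 0 H2B genes, and of the H3 genes limma-voom called 1 lower and DESeq2 none.

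The linker histone genes H1f2, H1f3 and H1f4, which carry the H1 box shown above, rose in IgG RIP. Their deposited models were 2.15, 9.57 and 2.47 times as long as the RefSeq genes. For H1f5 and H1f1 the ratios were 0.94 and 0.99. The part of model length and of the H1 box in the values of these genes was not tested. H1f4 had 33.8, 31.8 and 44.9 CPM in IgG RIP against 16.4 and 23.2 CPM in Input. Its log2 fold change was 0.91 ± 0.16 (SE, edgeR adjusted p = 2.02e-04). H1f3 had 21.3, 22.9 and 29.8 CPM in IgG RIP against 16.9 and 14.7 CPM in Input, with a log2 fold change of 0.66 ± 0.15 (adjusted p = 0.00185). H1f2 had 40.2, 40.8 and 40.2 CPM in IgG RIP against 27.1 and 30.4 CPM in Input, a log2 fold change of 0.50 ± 0.10 (adjusted p = 6.05e-04). In none of these 3 genes did the groups overlap, which also held for 60.4% of all genes tested. The other tested linker genes were less abundant and did not pass: H1f5, which also has the H1 box, had a log2 fold change of 0.66 ± 0.36, and H1f1, which lacks it, 0.44 ± 0.33. The exons of H1f4 share 496 bases with those of H2bc6 on the same strand, and how reads in shared exons were counted is not given in the sources used here. The log2 fold change of H2bc6 itself was below 0 and did not pass.

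Of the H4 genes, H4c3 (chromosome 13, 23697635 to 23698454, minus strand) differed most. It had 6.56, 5.46 and 5.41 CPM in IgG RIP against 16.3 and 25.1 CPM in Input, a log2 fold change of −1.82 ± 0.18 (SE, edgeR adjusted p = 6.22e-07). All IgG RIP libraries were below both Input libraries. H4c12 (chromosome 13, 21750194 to 21750505, minus strand) had 9.41, 7.65 and 7.44 CPM in IgG RIP against 13.8 and 20.6 CPM in Input, with −1.06 ± 0.18. H4c8 had 24.9, 22.2 and 24.3 CPM in IgG RIP against 34.1 and 47.8 CPM in Input, with −0.78 ± 0.13. The groups did not overlap in either gene, which also held for 60.4% of all genes tested. H4f16, the single gene of the Hist4 cluster, had 5.07, 4.66 and 3.04 CPM in IgG RIP against 8.66 and 8.30 CPM in Input. The near copies H4c18 and H4c17 had means of 6.12 and 2.19 CPM in IgG RIP against 10.9 and 4.48 CPM in Input, with log2 fold changes of −0.81 ± 0.20 and −1.01 ± 0.34. H4c9 had 4.84, 2.89 and 2.44 CPM in IgG RIP against 5.54 and 8.68 CPM in Input, with −1.07 ± 0.29.

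Not every H4 gene fell. H4c1 (chromosome 13, 23760692 to 23761230, minus strand), whose window lacks GGTCCG, had 7.20, 6.81 and 6.05 CPM in IgG RIP against 3.98 and 4.40 CPM in Input, and rose with a log2 fold change of 0.68 ± 0.21 (edgeR adjusted p = 0.0168). The most counted H4 genes, H4c14 and H4c4, did not pass: H4c14 had 0.20 ± 0.09 (adjusted p = 0.0959) and H4c4 −0.10 ± 0.09, with an interval of −0.30 to 0.10. H4c14 was called higher with the replicate block (adjusted p = 0.0338), without IgG RIP replicate 2 (0.0296), without Input replicate 1 (0.022) and with the exon length trend removed (0.0075). H4c4 was called lower with library size alone as the scaling (−0.33, adjusted p = 0.0107). H4c4 has GGTCCG in its window, as do H4c6 and H4c11, which did not pass either. Whether the motif has any part in the IgG RIP values was not tested. H4c1 was not called without Input replicate 1 (adjusted p = 0.168), without Input replicate 2 (0.0967) or with library size alone as the scaling (0.104). H4c17, H4c18 and H4c9 were each lost with at least 1 Input library left out, with adjusted p of 0.339 and 0.051 without Input replicate 1 for H4c17 and H4c18 and 0.243 without Input replicate 2 for H4c9. H4c17 was also lost without IgG RIP replicate 2 (0.0588) or replicate 3 (0.0502).

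Of the H2A genes, H2ac20 (chromosome 3, 96220361 to 96220880, minus strand) had 15.3, 11.3 and 15.1 CPM in IgG RIP against 8.01 and 6.75 CPM in Input, and rose by a log2 fold change of 0.93 ± 0.18 (edgeR adjusted p = 4.27e-04). It starts 238 bases from the H2B gene H2bc21, which is transcribed the other way and had −0.22 without passing. H2ac20 and H2bc21 are one of 12 such divergent pairs of an H2A and an H2B gene, with gaps of 175 to 305 bases. The partners often differed in counts: H2ac6 had 244 counts over all libraries and H2bc4 had 2190, and H2ac8 had 79 and H2bc8 had 924. H2aw, from the Hist3 cluster, had 6.16, 8.63 and 5.18 CPM in IgG RIP against 8.31 and 13.3 CPM in Input, which overlap, with a log2 fold change of −0.70 ± 0.23 (adjusted p = 0.024). Its exons share 708 bases with another gene on the same strand, and the call was lost without Input replicate 2 (adjusted p = 0.561), IgG RIP replicate 1 (0.0807) or IgG RIP replicate 3 (0.0899).

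Some H2A, H2B and H3 genes came close to the threshold between IgG RIP and Input. H2ac6 had 1.04, 0.746 and 0.639 CPM in IgG RIP against 2.02 and 1.59 CPM in Input, with no overlap and a log2 fold change of −1.14 ± 0.44 (SE, edgeR adjusted p = 0.0518). H3c10 had 1.18, 0.746 and 1.54 CPM in IgG RIP against 2.22 and 2.52 CPM in Input, also without overlap, with −1.01 ± 0.39 (adjusted p = 0.0519). Of all genes tested, 60.4% had no overlap. H2bu2 had 0.34 ± 0.14 (adjusted p = 0.0639) and was above both Input libraries in every IgG RIP library. For H2bc8 the values were 8.01, 4.52 and 5.90 CPM in IgG RIP against 3.53 and 4.66 CPM in Input, which overlap, with 0.59 ± 0.26. H3c6, whose IgG RIP libraries all lay above Input, had 0.33 ± 0.15 (adjusted p = 0.0909). H3c7 had 7.74, 9.51 and 9.47 CPM in IgG RIP against 8.06 and 7.76 CPM in Input and did not differ beyond its spread, with 0.19 ± 0.18.

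**Figure D4:**
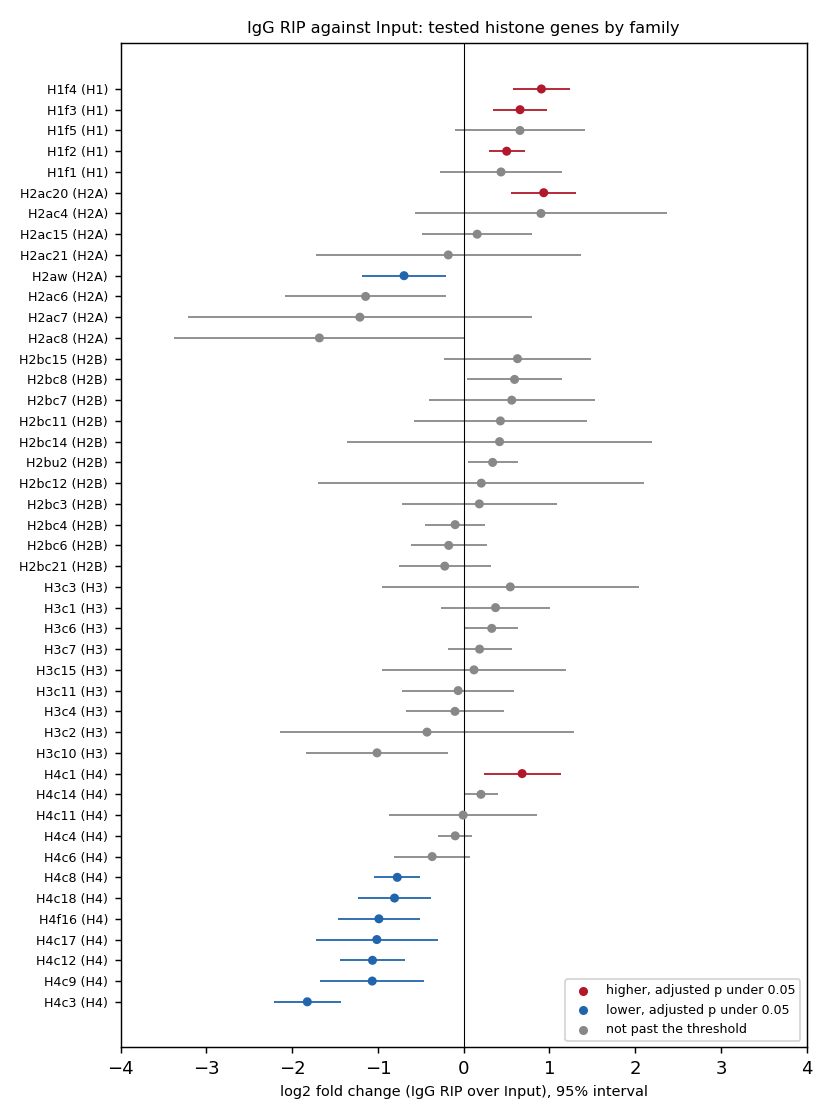
Log2 fold change of IgG RIP over Input (points) with the 95% interval (lines) for the 45 tested histone genes, ordered by family, red where the gene was higher, blue where lower and grey where it did not pass. The 3 red H1 points lie between 0.50 and 0.91, and the 7 blue H4 points between −1.82 and −0.78.

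In the fit of all 8 libraries, which includes the widely spread CaMKIIβ RIP libraries, H1f4 alone of the 13 genes was called, and H4c3 had an adjusted p of 0.0652. The biological coefficient of variation was 0.115 in the fit of IgG RIP and Input, 0.388 for CaMKIIβ RIP and IgG RIP, and 0.477 for CaMKIIβ RIP and Input. Without CaMKIIβ RIP replicate 2 the last pair of values were 0.243 and 0.234. The libraries of IgG RIP and Input did not overlap in 20 of 45 histone genes, against 60.4% of all genes. Several cell type marker lists moved with the same contrast. The 4 astrocyte markers summed to 7396 to 8552 CPM in IgG RIP against 2951 to 2986 CPM in Input, and all 4 were higher. The 4 oligodendrocyte markers summed to 8715 to 9300 CPM in IgG RIP against 5043 to 5058 CPM in Input, with 2 higher and 2 lower. The 3 blood markers summed to 150.5 to 169.3 CPM in IgG RIP against 294 to 297 CPM in Input, with 2 lower. The 2 markers of oligodendrocyte progenitors and 2 of 3 of endothelium were higher, and 2 of 4 Purkinje cell markers were higher and 2 lower. The hippocampal list and the cerebellar granule list each had 2 of 6 higher and 2 of 6 lower, microglia had 1 of 4 higher and 1 lower, and choroid plexus had 1 of 3 lower. Astrocyte markers moved likewise between CaMKIIβ RIP, at 6675 to 7945 CPM, and Input. No marker was at 0 in all libraries. The part of these markers, and of the mitochondrial share given above, in the histone values was not tested.

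The 11 tested genes listed as replication-independent histone genes had 0 calls in both comparisons of CaMKIIβ RIP. Between IgG RIP and Input 2 rose and 1 fell, 27.3% of them. The linker variant H1f0 rose with a log2 fold change of 0.32 ± 0.08, at 115 to 133 CPM in IgG RIP against 95.6 and 101 CPM in Input, as did Macroh2a1 with 0.33 ± 0.10. H3f3a, which encodes the replacement histone H3.3, fell with −0.56 ± 0.07, at 89.0 to 97.5 CPM in IgG RIP against 143 and 139 CPM in Input.

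Of 22 genes for transcription, processing and decay of histone mRNA, 0 were called between CaMKIIβ RIP and IgG RIP. Against Input, CaMKIIβ RIP had 2 higher (Upf1 and Cpsf1) and 2 lower (Casp8ap2 and Ncbp2). IgG RIP had 7 higher and 8 lower, with a median log2 fold change of −0.09. Slbp, which encodes the protein that binds the stem-loop, fell in IgG RIP, at 9.96, 10.5 and 7.96 CPM against 13.8 and 17.4 CPM in Input, with a log2 fold change of −0.71 ± 0.17 (edgeR adjusted p = 0.0023). Npat, a coactivator of histone genes in S phase, fell with −0.29 ± 0.09, and Casp8ap2, which encodes the FLASH protein of the processing machinery, fell with −1.11 ± 0.11. Upf1, a helicase that takes part in histone mRNA decay, rose with 0.89 ± 0.08, at 175 to 200 CPM in IgG RIP against 106 and 94.4 CPM in Input. Of 17 tested histone chaperone genes 5 were higher and 6 lower in IgG RIP, and of 21 S phase and proliferation genes 4 were higher and 2 lower. Between CaMKIIβ RIP and Input the chaperones had 1 of 17 higher and 3 lower and the S phase genes 0 of 22 higher and 1 lower, and between CaMKIIβ RIP and IgG RIP both lists had 0 calls. These lists were tested gene by gene. Over all genes 38.7% were called between IgG RIP and Input, 8.45% between CaMKIIβ RIP and Input and 0.0% between CaMKIIβ RIP and IgG RIP.

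The other 21 histone genes were tested in no comparison. Of these, 10 had between 1 and 57 counts over the 8 libraries, and 11 had 0 counts in every library, which allows at most 0.107 to 0.174 CPM per library (3 counts, covering counting error only). H1f6, H2bc1 and H2ac1 among the 11 are known as testis genes. Of the other 8, H2ac18, H2ac19, H2bc18, H3c13 and H3c14 have at least 50% of their exon bases inside the exons of another gene of the table. The genes that lie over H2ac19 and H2ac18 on the opposite strand had 467 and 240 counts. On the same strand, other genes cover 100% of the exon bases of H3c14, 90.3% of H2ac18 and 59.3% of H2bc18. Strandedness of the counting and the handling of reads in shared exons are not given in the sources used here. A count of 0 in these genes therefore does not show that their RNA was absent. The last 3 have near copies: the 300-base window of H2bc23 is identical to that of H4bc24, and those of H2ac23 and H2ac24 share an unbroken run of 200 bases. Long runs were also shared by the windows of H2ac18 and H2ac19 (219 bases) and of H3c14 and H3c15 (231 bases).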

How the data were processed

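The authors deposited raw counts per gene for 8 libraries. The submitters' processing notes name STAR 2.7.3a, featureCounts 2.0.1, Trim Galore 0.6.4 and cutadapt 2.10 and the build GRCm38.p6. Which annotation was counted, and whether strand, duplicates or multiply placed reads were considered, is not given in the sources used here.

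RefSeq genes of GRCm38.p6 were joined to Ensembl models by position, and by strand where it was known. At least 0.7 of the shorter span had to be shared, which placed all 67 histone genes. The 5 without a matched promoter window (H4c14, H2bc4, H2bc21, H3c7 and H3c1) had no known strand and were joined by position alone. The members and lists were chosen with earlier results of these data known. Each comparison was fitted on all genes of the libraries compared, using R 4.3.3 and edgeR 4.0.16 (TMM, filterByExpr with minimum count 10 and minimum total 15, robust quasi-likelihood F test, Benjamini-Hochberg over all genes tested). The method was tested on simulated data, with changes given only to genes above a minimum level. Tested histone genes such as H2bc14 lay below that level. Of the 2-fold changes 47% were recovered for CaMKIIβ RIP against IgG RIP, 33% for CaMKIIβ RIP against Input and 83% for IgG RIP against Input. Of the 4-fold changes 82%, 67% and 98% were recovered. Per-library CPM are TMM-scaled over the 8 libraries. Groups are given as mean ± SD and log2 fold changes with the SE.

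Named histone genes are the 12 with the highest mean CPM, those past the threshold and the most counted of each family and cluster. Of other lists, abundant or called genes are named, and further histone genes were named after their values were seen. Alternatives were 3 scalings, 2 filters, DESeq2 1.42.0, voom (limma 3.58.1), 1 fit for every library together, replicate number as a block, a minimum fold change of 2, current symbols alone and each library left out. An exon length correction and the H1 and H4 counts by setting were added after the data were seen. Same-numbered libraries did not deviate together (7 pairs, correlations of −0.048 to 0.062), so numbers were not taken as pairs. Replicates differed by more than sampling noise.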

Additional observations from a re-analysis of the deposited data

How the results depend on the processing

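Between CaMKIIβ RIP and IgG RIP the count of histone genes called was 0 under every setting run. The median log2 fold change was −0.05 to 0.22 with 1 library left out and 0.54 with the exon length trend removed. Between CaMKIIβ RIP and Input the count of 0 became 1 with no count filter, 2 with DESeq2, the fit of all 8 libraries or the replicate block, 4 with the length trend removed, and 0 to 4 with 1 library left out. The 4 came without CaMKIIβ RIP replicate 2. The median was −0.05 to 0.14 with 1 library left out and 1.003 with the length trend removed. Between IgG RIP and Input the 13 calls became 1 in the fit of all 8 libraries, 4 at a fold change of at least 2, 10 to 18 with 1 library left out and 16 with the replicate block, in which none of the 13 was lost. H1 genes that rose numbered 3, against 1 in the fit of all 8 libraries, 0 at a fold change of at least 2 and 3 to 5 with 1 library left out. H4 genes that fell numbered 7, against 0, 4 and 5 to 7 under the same settings. The median was −0.02 to 0.10 with 1 library left out, −0.11 with library size alone and −0.02 with no count filter. H4 genes above 0 between CaMKIIβ RIP and IgG RIP numbered 9 to 12 with 1 library left out. By current symbol alone the summed level was 391.9 CPM in IgG RIP and 448.5 CPM in Input. No called gene changed sign. The cause of these changes was not tested. Precision is limited by the 2 Input libraries and the spread of CaMKIIβ RIP.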

Other observations

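Calls between IgG RIP and Input are given here by the ratio of the exon bases of the gene model to the span of the RefSeq gene. Of 13 tested histone genes with a deposited model at least 1.5 times as long as the RefSeq gene, 3 were higher and 4 lower. The higher ones were H1f2, H1f3 and H1f4, and the lower ones H4c3, H4c9, H4f16 and H2aw. Of the 32 with a lower ratio 2 were higher and 4 lower. A lower ratio need not mean a short model, since the RefSeq span counts introns. H2bc6 is among the 32 with a model of 4446 bases against a span of 37455. These are 53.8% and 18.8%, against 38.7% of all genes and 12.9% of genes with at most 1000 exon bases, and the difference was not tested. The median log2 fold change was −0.10 for the 13 genes and 0.18 for the 32. Spearman's correlation of model length with log2 fold change was 0.01 over the 45 tested histone genes and 0.16 over all tested genes, across genes that are not independent replicates.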
